A study of Mus musculus with 6 samples.

Results

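Transcripts that follow the output of the RAF-MEK-ERK cascade were examined in tumor-bearing mouse colon. The members are 10 genes chosen by symbol. They are the ERK phosphatases Dusp4, Dusp5 and Dusp6, the Sprouty genes Spry1, Spry2 and Spry4, the Sprouty-related genes Spred1 and Spred2, and the ETS transcription factors Etv4 and Etv5. Every gene probe that carries one of these symbols was taken, which gave 17 probes of the 56605 gene probes on the array. Of the 10 genes, 9 had a probe that stood well above background in every array of 1 group or both and were tested, through 13 probes, among 19087 genes tested in all. Spry4 did not pass.

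The series holds 6 one-color arrays of colon tumor tissue from male C57BL/6 mice, aged 6 to 8 weeks when bought, with 1 mouse per array and 3 mice in each of 2 groups. All mice carried colitis-associated colon cancer, induced by AOM (azoxymethane, a carcinogen, at 10 μg/g) and 2% DSS (dextran sulfate sodium, which inflames the colon). One group received RG@M-γ-CD by mouth, a complex of regorafenib (RG) with a γ-cyclodextrin that carries mannose, at 30 μg/g of the complex and 10 μg/g RG. The other received PBS. Treatment lasted 21 days and was followed by 14 days of observation. The share of tumor in each piece of tissue is not given in the sources used here.

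Regorafenib is an inhibitor of many kinases, among them receptor tyrosine kinases and RAF, which stand upstream of ERK. Active ERK phosphorylates transcription factors, and the cell answers with transcripts whose proteins hold the pathway back. Dual-specificity phosphatases remove the activating phosphates from ERK, Sprouty and Spred proteins restrain the steps between receptors and RAF, and the ETS factors Etv4 and Etv5 are both targets of the pathway and activators of further genes. In the colon the pathway is driven by receptors of epidermal growth factor ligands and often by mutant RAS or RAF in tumors. The comparison asks whether transcripts that report ERK output differed in tissue of treated mice.

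The stretch of DNA before the start site is shown for 1 phosphatase, 1 Spred gene and 1 ETS factor, because ETS factors, which carry the ERK signal to promoters, bind DNA with GGAAG at its core. The sequences run from 5′ to 3′ along the gene's strand, in the mouse assembly GRCm38.p6 of RefSeq, and capitals mark each GGAAG or its reverse complement. Dusp6 is taken from chr10:99262981-99263230 on the plus strand, Spred1 from chr2:117120821-117121070 on the plus strand and Etv5 from chr16:22438369-22438618 on the minus strand, and each stretch has 250 bases.
Dusp6: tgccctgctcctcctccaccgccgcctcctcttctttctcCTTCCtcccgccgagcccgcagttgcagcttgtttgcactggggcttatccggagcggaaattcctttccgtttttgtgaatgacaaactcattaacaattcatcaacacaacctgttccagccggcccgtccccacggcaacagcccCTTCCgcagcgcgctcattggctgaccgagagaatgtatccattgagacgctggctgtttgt
Spred1: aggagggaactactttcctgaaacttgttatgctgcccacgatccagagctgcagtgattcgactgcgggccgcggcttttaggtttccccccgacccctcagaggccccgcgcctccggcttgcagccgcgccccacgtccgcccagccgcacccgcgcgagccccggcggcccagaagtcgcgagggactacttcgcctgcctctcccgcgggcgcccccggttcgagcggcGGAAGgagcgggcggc
Etv5: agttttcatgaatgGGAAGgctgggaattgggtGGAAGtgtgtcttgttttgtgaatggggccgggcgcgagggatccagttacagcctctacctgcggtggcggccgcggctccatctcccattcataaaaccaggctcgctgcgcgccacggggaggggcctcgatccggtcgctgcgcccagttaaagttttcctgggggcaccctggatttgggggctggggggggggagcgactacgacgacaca
Of the 10 members, 7 matched the table of promoter windows, with 8 windows, since Etv5 has a pair of start sites there. Each stretch shown holds GGAAG or its reverse complement. In the 250 bases before the start it lay 0 times for the other Etv5 start site, for Spry1 and for Spry2. Each window covers 250 bases before to 50 bases after the start, 300 in all, and both strands were searched. GGAAG or its reverse complement lay in 6 of the 8 windows of the members and in 71.4% of the 32851 windows of all genes. The longer ETS core CCGGAAG, which contains GGAAG, was found in 0 of the 8 windows and in 8.86% of all windows, and the AP-1 letters TGACTCA in 0 of the 8 and in 5.20% of all.

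Values are log2 intensities minus the 75th percentile of their own array's gene probes, so that a difference of 1 is a doubling. Each gene is represented by its brightest probe above background, and the levels of different probes are not set against each other. The number of gene probes well above background was 28103 to 31219 per array, 0 gene spots were saturated, and all arrays came from 1 slide and 1 scan. The tissue carried the markers of colon epithelium on every array, with all 10 genes of that list tested. Their mean levels were 6.21 to 6.58 in the RG@M-γ-CD arrays and 6.04 to 6.64 in the PBS arrays. The PBS arrays were uneven in other markers. The mean of 7 tested B and plasma cell genes was 2.19, 1.45 and 0.45 in PBS replicates 1, 2 and 3, and 0.89 to 1.44 in RG@M-γ-CD. The mean of 3 tested exocrine pancreas genes, of 8 listed, was 2.08 in PBS replicate 2 and −0.72 to −0.12 on the other arrays. The high value came from Cel and Ctrb1, at −1.14 and 0.61 in PBS replicate 2. Cela1 went another way, at 6.77 in PBS replicate 2 and 6.85 in RG@M-γ-CD replicate 3. Ctrb1 read −4.75 in RG@M-γ-CD replicate 2, where the lowest reading marked as well above background was −4.16. The means of the pancreas genes therefore rest in part on dim readings. The RG@M-γ-CD arrays were unlike each other in markers of the muscle wall: the mean of 8 smooth muscle genes, all tested, was 2.67 in replicate 1, 5.38 in replicate 2 and 5.68 in replicate 3, against 3.44 to 3.77 in the PBS arrays. Replicate 1 of RG@M-γ-CD lay below and replicates 2 and 3 above all PBS arrays. PBS replicate 1, at 3.77, lay near the other PBS arrays in these markers and not with RG@M-γ-CD replicates 2 and 3. Over all genes tested, its deviations from its group mean correlated at 0.41 with those of RG@M-γ-CD replicate 2. With those of RG@M-γ-CD replicates 1 and 3 the correlations were −0.25 and −0.27. A heat map of the study groups the arrays otherwise. It sets RG@M-γ-CD replicate 1 beside PBS replicates 2 and 3, apart from RG@M-γ-CD replicates 2 and 3 and PBS replicate 1. The labels were followed throughout, and values under that other grouping are given where stated, with neither side named as treated.

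None of the 9 tested members passed the test between the labeled groups (limma, Benjamini-Hochberg adjusted p = 0.99998 for each). The same fit called 0 of the 19087 genes tested, which is 0%. At an unadjusted p below 0.05 it held 419 genes, or 2.2%, and 0 of the members. The arrays of the 2 groups lay fully apart for 872 genes, or 4.57%, and for 0 members. Of the members 4 had a difference above 0 and 5 below, where 52.8% of all genes tested lay below 0. The median difference was −0.05 over the members and −0.01 over all genes, and the median size of the difference was 0.12 in both. Fewer cells of a type and less RNA per cell cannot be told apart in tissue of this kind.

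**Figure D1:**
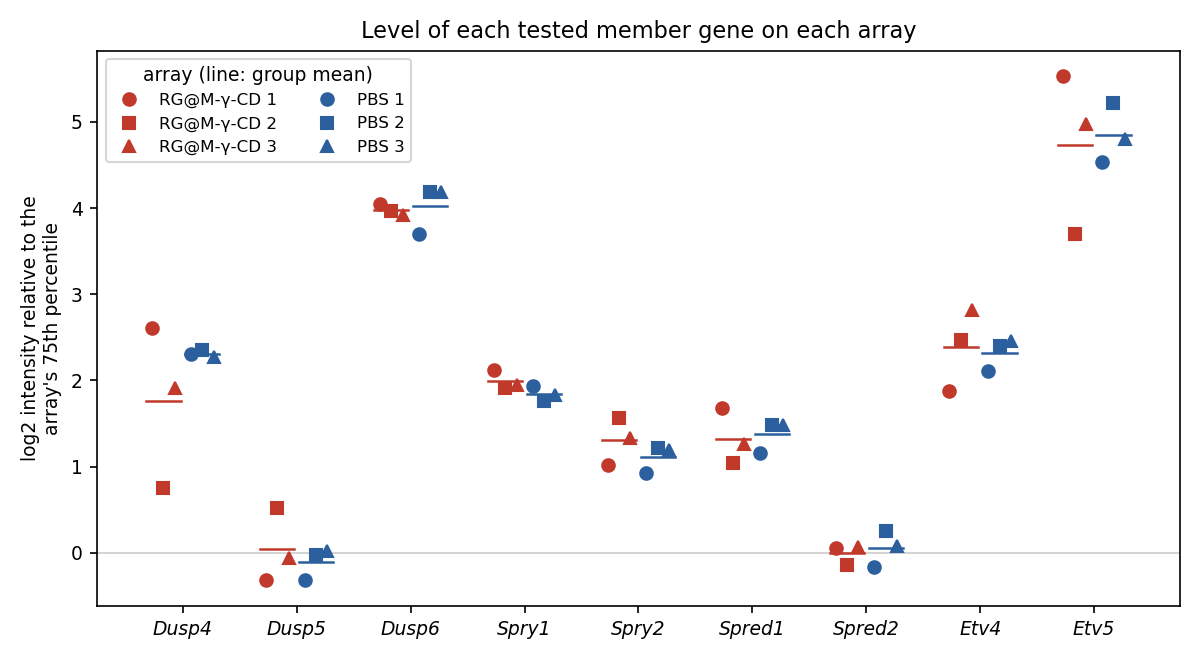
Level of each tested member gene (x axis) on each array, as log2 intensity relative to the 75th percentile of the array (y axis), with RG@M-γ-CD in red, PBS in blue, a symbol for each replicate and a line at each group mean. The groups overlap for all 9 genes, and Dusp4 and Etv5 are spread most widely, with RG@M-γ-CD replicate 2 at 0.75 and 3.70.

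Among the phosphatases, Dusp4 had the largest difference of the members. Dusp4 encodes a nuclear enzyme that acts on ERK and also on the stress kinases. Its probe A_51_P347333, at chr8:35884806-35884865 in the mm9 assembly of the array's annotation, read 2.61, 0.75 and 1.91 in RG@M-γ-CD replicates 1, 2 and 3, and 2.30, 2.36 and 2.28 in PBS replicates 1, 2 and 3. The PBS arrays lay within 0.08 of each other, while the RG@M-γ-CD arrays covered 1.86, from above to well below them. The PBS arrays averaged 2.31 ± 0.04 (SD, n = 3), and the RG@M-γ-CD arrays 1.76 ± 0.94 (SD, n = 3). The difference was −0.56 with a standard error of 0.45, a 95% interval of −1.63 to 0.52 and an adjusted p of 0.99998 in limma, which is 1.47-fold lower. That interval reaches from 3.11-fold lower to 1.44-fold higher. Without RG@M-γ-CD replicate 1 the difference was −0.98 with an adjusted p of 0.313 in limma, while leaving out replicate 2 of that group gave −0.05.

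The other Dusp4 probe, A_51_P518051 at chr8:35882045-35882104, followed the same order of arrays within the treated group. It read 0.72, −1.14 and −0.10 in RG@M-γ-CD and 0.36, 0.50 and 0.37 in PBS, a difference of −0.59 with a standard error of 0.45. The low value of RG@M-γ-CD replicate 2 was therefore present in both probes.

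Dusp6, the phosphatase that holds ERK in the cytoplasm and serves as a common readout of ERK activity, was among the more even members. Its probe at chr10:98729985-98730044 read 4.05, 3.96 and 3.92 in RG@M-γ-CD and 3.70, 4.19 and 4.19 in PBS. The RG@M-γ-CD arrays lay between the lowest and the highest PBS array. The difference was −0.05 with a standard error of 0.19 and a 95% interval of −0.50 to 0.40, so that a decrease beyond 1.42-fold or an increase beyond 1.32-fold lay outside it. Without PBS replicate 1, the lowest array for this gene, the difference was −0.21.

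Dusp5, a nuclear phosphatase that is specific for ERK, had 2 probes. The one above background, at chr19:53616779-53616838, read −0.31, 0.52 and −0.06 in RG@M-γ-CD and −0.32, −0.03 and 0.03 in PBS. RG@M-γ-CD replicate 2, the lowest array for Dusp4, was the highest for Dusp5, and the other 5 arrays overlapped. The difference was 0.16 with a standard error of 0.25 and a 95% interval of −0.44 to 0.76. It was −0.08 when that array was left out and between 0.05 and 0.34 when any other was. On no array was the other probe, A_55_P2063237, well above background.

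**Figure D2:**
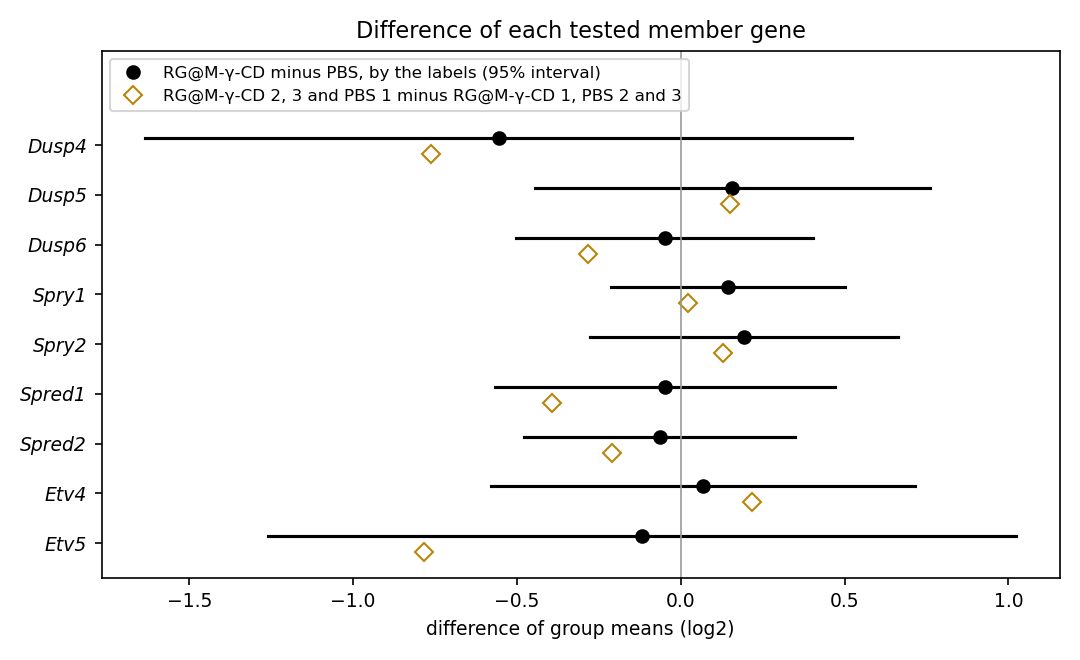
Difference of group means on the log2 scale (x axis) for each tested member (y axis), with black points and 95% intervals for the labeled groups (RG@M-γ-CD minus PBS), and open diamonds for the grouping of the heat map. All 9 intervals include 0, from the narrow one of Spry1 (−0.21 to 0.50) to the wide ones of Dusp4 and Etv5.

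The Sprouty genes encode membrane-bound inhibitors that act between growth factor receptors and RAF. Spry1 read 2.12, 1.91 and 1.95 in RG@M-γ-CD and 1.94, 1.77 and 1.84 in PBS, at chr3:37543194-37543253. Only PBS replicate 1 overlapped the RG@M-γ-CD arrays, and it exceeded just 1 of them. The difference was 0.15 with a standard error of 0.15, a 95% interval of −0.21 to 0.50 and an adjusted p of 0.99998 in limma. All 6 arrays lay within 0.35 of each other, a range narrower than that of most genes, since just 11.6% of the genes tested had a smaller one.

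Spry2 read 1.02, 1.56 and 1.33 in RG@M-γ-CD and 0.93, 1.21 and 1.199 in PBS, at chr14:106291385-106291444. RG@M-γ-CD replicates 2 and 3 were above all PBS arrays and replicate 1 was below PBS replicates 2 and 3. The difference was 0.19 with a standard error of 0.20 and a 95% interval of −0.28 to 0.66. A second Spry2 probe was well above background on 1 array of each group and was not tested. On none of the 6 arrays was the probe of Spry4 well above background, with readings of −6.29 to −5.64, below the lowest reading of −4.62 that was marked as well above background on any array. No difference is given for it.

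Spred1 and Spred2 encode Sprouty-related proteins that bring neurofibromin, a RAS inactivator, to the membrane. Spred1 read 1.68, 1.04 and 1.26 in RG@M-γ-CD and 1.16, 1.48 and 1.48 in PBS, at chr2:117007850-117007909. RG@M-γ-CD held both the highest and the lowest array. The difference was −0.05 with a standard error of 0.22 and a 95% interval of −0.57 to 0.47, and leaving out replicates 2 and 1 of RG@M-γ-CD gave 0.09 and −0.22, respectively. The second Spred1 probe, A_52_P637689, read −2.23, −2.45 and −2.64 in RG@M-γ-CD and −2.25, −2.36 and −2.44 in PBS, a difference of −0.09.

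Spred2 read 0.05, −0.14 and 0.07 in RG@M-γ-CD and −0.16, 0.25 and 0.08 in PBS by its brightest probe, at chr11:19922416-19922475. The groups overlapped, and the difference was −0.06 with a standard error of 0.17 and a 95% interval of −0.48 to 0.35. Its second probe, A_65_P08340 at chr11:19880739-19880798, is annotated to the cDNA clone AK032859 rather than to the RefSeq transcript and gave another pattern. Whether it reads the Spred2 mRNA was not tested. It read −3.19, −0.80 and −2.40 in RG@M-γ-CD and −1.18, −2.87 and −2.47 in PBS. RG@M-γ-CD replicate 2 and PBS replicate 1 were the high arrays here, and the same arrays were the low ones for the brightest probe. The difference between the labeled groups was 0.04 with a standard error of 0.70, and the third Spred2 probe was well above background on 0 arrays.

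Etv4 and Etv5 belong to the PEA3 group of ETS factors. Etv4 read 1.88, 2.47 and 2.82 in RG@M-γ-CD and 2.10, 2.40 and 2.46 in PBS, at chr11:101631057-101631116. RG@M-γ-CD replicate 1 was the lowest array and replicate 3 the highest. The difference was 0.07 with a standard error of 0.27 and a 95% interval of −0.58 to 0.71, and its second probe gave 0.04. The Etv4 difference was −0.15 when RG@M-γ-CD replicate 3 was left out, without PBS replicate 1 it was −0.04, and leaving out RG@M-γ-CD replicate 1 gave 0.32.

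Etv5 read 5.53, 3.70 and 4.98 in RG@M-γ-CD and 4.54, 5.22 and 4.81 in PBS, at chr16:22381387-22381446. RG@M-γ-CD replicate 1 was the highest array and replicate 2 the lowest, as for Dusp4 and Spred1. The PBS arrays averaged 4.85 ± 0.34 (SD, n = 3) and the RG@M-γ-CD arrays 4.74 ± 0.94 (SD, n = 3), and the difference was −0.12 with a standard error of 0.47, a 95% interval of −1.26 to 1.02 and an adjusted p of 0.99998 in limma. It was 0.40 without RG@M-γ-CD replicate 2, 0.06 without PBS replicate 2 and −0.52 with RG@M-γ-CD replicate 1 left out. The 6 arrays covered a 3.57-fold range for Etv5 and a 3.64-fold range for Dusp4, wider than 88.4% and 88.8% of the genes tested, respectively.

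**Figure D3:**
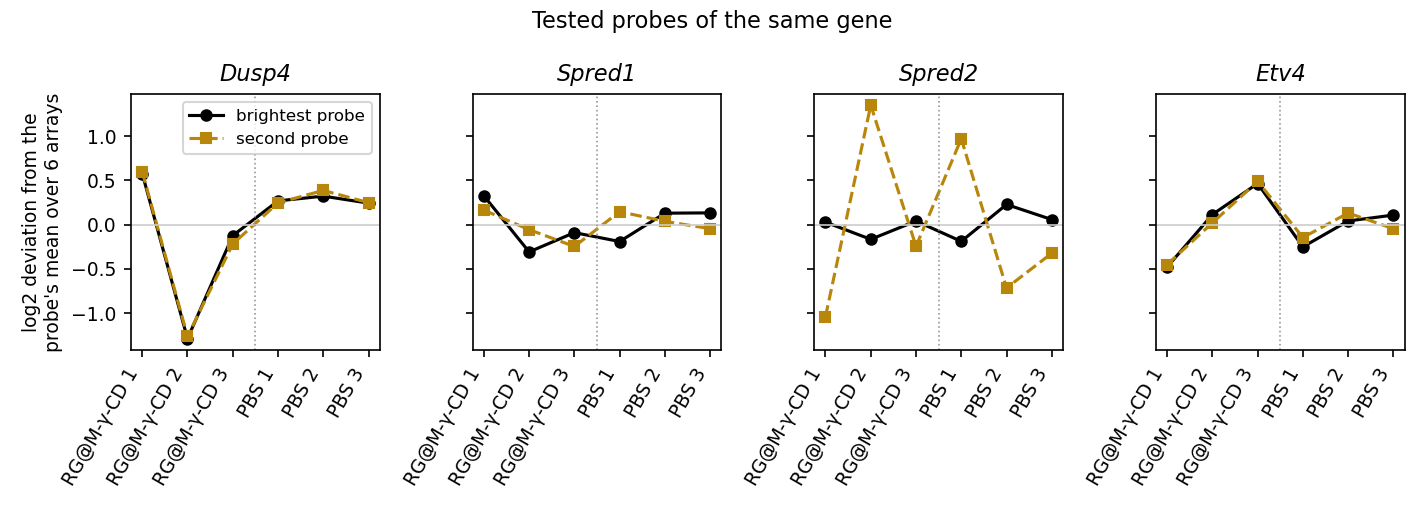
Log2 deviation from the mean of the 6 arrays (y axis) for the tested probes of the same gene on each array (x axis), for the 4 members with more than 1 tested probe; the solid line is the brightest probe and the dashed line the second. The lines of Dusp4 and of Etv4 run together, while the second Spred2 probe swings the other way from the brightest one, from −3.19 to −0.80 in its log2 level.

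The members did not move as a block from array to array. RG@M-γ-CD replicate 2 was the lowest array for 3 of the 9 tested members (Dusp4, Spred1 and Etv5) and the highest for 2 (Dusp5 and Spry2). Over all genes tested it was the lowest array for 36.7% and the highest for 20.6%. PBS replicate 1 was the lowest array for 4 members (Dusp5, Dusp6, Spry2 and Spred2), against 23.0% of all genes. RG@M-γ-CD replicate 1 was the highest for 4 (Dusp4, Spry1, Spred1 and Etv5), against 28.9% of all genes.

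Other tissue markers also differed between these arrays, but RG@M-γ-CD replicate 2 was not the extreme array of every list. The mean of 8 proliferation genes, all tested, was 2.11 in RG@M-γ-CD replicate 2, the array with the lowest Dusp4 and Etv5, and 2.73 to 3.12 in the other 5. The mean of 8 neutrophil genes, all tested, was 1.60 in RG@M-γ-CD replicate 1, −1.39 in replicate 2 and −0.62 in replicate 3, and 0.67 to 1.41 in PBS. Csf3r of this list went the other way, at 5.02 in RG@M-γ-CD replicate 1 and 6.25 in replicate 2. In RG@M-γ-CD replicate 2, Cxcr2, Retnlg and Mmp9 read −6.46, −4.57 and −4.87. The lowest reading marked as well above background on that array was −4.16, so its mean rests in part on dim readings. The mean of 8 macrophage genes, all tested, was 1.71, 1.05 and 0.90 in RG@M-γ-CD and 1.496 to 1.73 in PBS. Itgam of the macrophage list went the other way, at 1.94 in RG@M-γ-CD replicate 1 and 3.58 in replicate 2. The part of these cell types in the values of Dusp4 and Etv5 was not tested.

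Under the grouping of the heat map, RG@M-γ-CD replicates 2 and 3 with PBS replicate 1 were set against RG@M-γ-CD replicate 1 with PBS replicates 2 and 3. The grouping was read from a display of these same data, so its p-values are given as a description. Its fit called 5 of 19295 genes, or 0.0259%, and 0 members. At an unadjusted p below 0.05 it held 3193 genes, or 16.5%, with 1 member, Spred1, among them. The arrays lay fully apart for 4914 genes, or 25.5%, and for 2 of the 9 tested members, Dusp6 and Spred1, which is near that share.

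The Dusp6 difference was −0.28 under this grouping, the Spred1 difference −0.39, the Dusp4 difference −0.76 and the Etv5 difference −0.78, with adjusted p of 0.319, 0.297, 0.331 and 0.311 in limma. Those 4 genes were lower in the side that holds RG@M-γ-CD replicates 2 and 3. The second Spred1 probe, A_52_P637689, gave a smaller difference of −0.10, and its arrays overlapped between the sides. Etv4, Spry1, Spry2 and Dusp5 had differences of 0.22, 0.02, 0.13 and 0.15. The Spred2 difference was −0.21 by the brightest probe. The probe on the cDNA clone AK032859, for which it was not tested whether it reads the Spred2 mRNA, gave 1.38.

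The genes around the members in the pathway were examined through 5 lists, of which 0 genes passed the adjusted threshold in either direction. The core of the cascade, from the adaptors Grb2 and Shc1 through RAS, RAF and MEK to ERK and its RSK kinases, had all 22 genes tested, 12 with a difference above 0 and 10 below, and a median of 0.02. The core covered −0.26 to 0.32, with Gab1, a docking adaptor of receptor kinases, at the upper end.

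Other inhibitors of RAS and ERK signaling had 13 of 15 genes tested, 6 above 0 and 7 below, with a median of −0.03. Spry3 was well above background on 0 arrays, and Rasal1 on 3, in neither group on all of its arrays. In 2 of the 13 genes the groups did not overlap, beside 4.57% of all genes tested. Rasa2, a RAS GTPase-activating protein, read 2.47, 2.66 and 2.495 in RG@M-γ-CD and 2.43, 2.44 and 2.43 in PBS, a difference of 0.11. Lrig1, which restrains epidermal growth factor receptors and marks intestinal stem cells, read 4.01, 4.26 and 3.96 in RG@M-γ-CD and 3.50, 3.93 and 3.93 in PBS, a difference of 0.29. Both had an adjusted p of 0.99998 in limma.

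Other MAP kinase phosphatases had all 10 genes tested, 2 above 0 and 8 below, with a median of −0.13. Ptpn7, a tyrosine phosphatase of blood cells that acts on ERK, read −2.50, −3.40 and −3.23 in RG@M-γ-CD and −2.21, −2.51 and −2.004 in PBS. It was the only gene of the 5 lists at an unadjusted p below 0.05, with a difference of −0.80, a standard error of 0.28 and an adjusted p of 0.99998 in limma, and RG@M-γ-CD replicate 1 overlapped the PBS arrays. The largest difference of this list was that of Dusp1, an immediate early phosphatase that acts mainly on the stress kinases. It read 2.86, 5.08 and 3.83 in RG@M-γ-CD and 3.37, 3.09 and 2.86 in PBS, a difference of 0.81 that was largest in RG@M-γ-CD replicate 2.

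Other ETS factors of the pathway had all 12 genes tested, 3 above 0 and 9 below, with a median of −0.06. Etv1, the third gene of the PEA3 group, had the largest difference of the list. It read −1.51, 0.81 and 0.97 in RG@M-γ-CD and −0.67, −0.65 and −0.38 in PBS, so that RG@M-γ-CD replicate 1 lay below and replicates 2 and 3 above all PBS arrays, the same order as for the smooth muscle markers. Its difference was 0.65 with a standard error of 0.65. In Etv5, by contrast, RG@M-γ-CD replicate 1 lay above and replicate 2 below all PBS arrays, with replicate 3 between them.

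Other ERK-responsive transcripts had 15 of 16 genes tested, since Lif did not pass the filter, with 4 above 0, 11 below and a median of −0.17. The groups did not overlap for 2 of the 15, beside 4.57% of all genes tested. Plaur, the urokinase receptor, read 1.90, 0.25 and 1.504 in RG@M-γ-CD and 2.07, 1.98 and 2.49 in PBS, a difference of −0.96 with a standard error of 0.43. Ier2, an immediate early gene, read 3.26, 4.43 and 3.24 in RG@M-γ-CD and 3.10, 3.16 and 2.86 in PBS, a difference of 0.60 with a standard error of 0.35. RG@M-γ-CD replicate 2 was the extreme array of both. The median of this list varied with the array left out. Leaving out RG@M-γ-CD replicates 1, 2 and 3 in turn gave −0.37, 0.01 and −0.34. Leaving out PBS replicates 1, 2 and 3 in turn gave −0.27, −0.15 and −0.077.

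**Figure D4:**
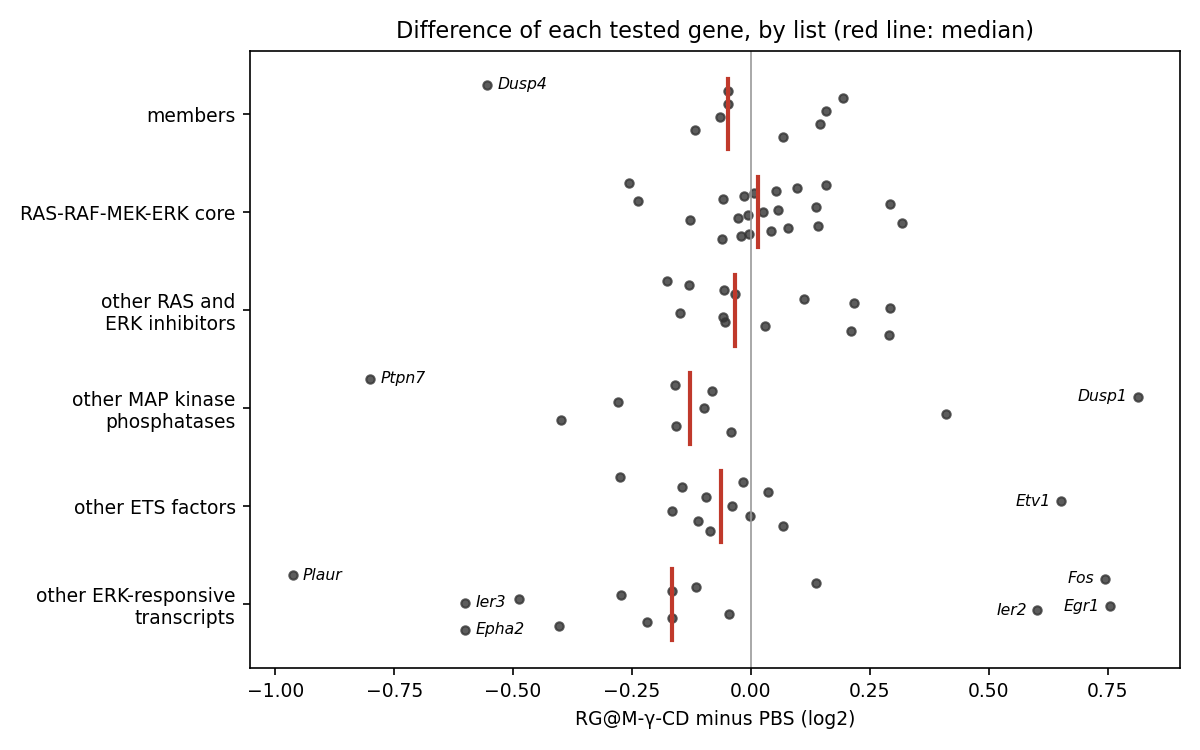
Difference between RG@M-γ-CD and PBS on the log2 scale (x axis) for each tested gene (points) of the members and the 5 pathway lists (y axis), with a red line at the median of each list and names for genes beyond 0.5 in either direction. The medians lie between −0.17 and 0.02, and none of the genes passed the adjusted threshold.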

How the data were processed

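RNA of 6 colon tumor samples was labeled with Cy3 and hybridized to Agilent one-color arrays by the authors. The deposited intensity of each spot comes from Agilent Feature Extraction 10.7.1.1, per the labels, after background correction and without scaling between arrays. The authors also deposited a table of log2 values, whose columns share 1 distribution and correlate with their own array's intensities at r of at least 0.999. Its normalization method is not given in the sources used here.

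Control spots and 790 outlier spots were left out, log2 values were averaged over the spots of a probe, and each array's 75th percentile was subtracted. For 58.3% of gene probes the symbol came from the RefSeq table by accession, for the others from the scanner output. A probe was tested if well above background in every array of 1 group or both, and the brightest tested probe stood for its gene. Groups were compared with lmFit and eBayes of limma 3.58.1 in R 4.3.3, with Benjamini-Hochberg adjustment over all genes and a threshold of 0.05. The fit was tested on simulated data, where the changed genes were given large changes and a smaller spread than in the real arrays. It therefore gives no measure of the power for small differences. The signal above background sets the depth, and the 3 arrays per group limit the precision.

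The members and lists were chosen with earlier results of these data known. Text names all members and, of each pathway list, genes at an unadjusted p below 0.05 or whose groups do not overlap, or else the largest difference. Dusp1, and the genes named only in the plot of the lists, were chosen after their values were seen. Alternatives changed the background correction (normexp with an offset of 50), scaling, value table, filter on dim probes, probe choice, outlier spots, test, blocks, grouping and replicates.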

Additional observations from a re-analysis of the deposited data

How the results depend on the processing

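Of 19087 genes tested, 0 passed the adjusted threshold of limma by the labels. With the grouping of the heat map 5 genes passed, and leaving out 1 array gave 0 to 206, the highest number being the one without RG@M-γ-CD replicate 1. The count of members that passed was 0 under all 17 alternatives. With the slide row as a block, 8 of the 9 tested members lay above 0 in place of 4, the members' median was 0.20, and the differences of Dusp6, Spred1, Spred2 and Etv5 turned to 0.28, 0.17, 0.16 and 0.20. The RG@M-γ-CD arrays and PBS replicate 1 stand in row 1 and the other PBS arrays in row 2, so this fit compares the treated arrays with PBS replicate 1 alone. It moved the median of all genes from −0.01 to 0.10. Under the grouping of the heat map the groups did not overlap for 2 members in place of 0. Leaving out 1 array gave 3 to 8 members above 0, 0 to 3 members without overlap and a median of −0.16 to 0.06. The groups did not overlap for 3 members without RG@M-γ-CD replicate 1, 3 without PBS replicate 1 and 1 without RG@M-γ-CD replicate 2, beside 25.9%, 14.9% and 14.8% of all genes tested in those fits.

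Of the member values under the alternatives, 137 kept their sign and 16 had the opposite one, and the cause was not tested. The t-test and the replicate block cannot change a difference, and the filters on dim probes left each tested member's value as it was. The 137 therefore include values that could not change sign. They also include values under the grouping of the heat map, where neither side is named as treated and the sign is arbitrary. Beside the row block, all opposite signs came from leaving out 1 array. Those fits gave −0.078 to 0.34 for Dusp5, −0.21 to 0.034 for Dusp6 and −0.22 to 0.094 for Spred1. They gave −0.17 to 0.033 for Spred2, −0.15 to 0.32 for Etv4 and −0.52 to 0.40 for Etv5. Dusp4, Spry1 and Spry2 kept their sign under every alternative run, at −0.98 to −0.05, 0.02 to 0.19 and 0.07 to 0.38. The 0.02 of Spry1 came from the grouping of the heat map, and its lowest value by the labels was 0.055, with the row block. With the replicate number as a block 0 genes passed, and the number at an unadjusted p below 0.05 went from 419 to 463. Deviations of same-numbered arrays correlated across genes at −0.25, −0.23 and 0.14, so the numbers do not pair the samples. The methods' t-test gave 0 genes after Benjamini-Hochberg adjustment, and 45 at a fold change of 2 with an unadjusted p of 0.05, of which 0 were members.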
